A study of Sus scrofa with 6 samples.

Results

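The genes described here are direct targets and regulators of canonical WNT signalling in pig embryonic stem cells: the axins AXIN1 and AXIN2, the feedback genes NKD1 and APCDD1, the transcription factors LEF1, TCF7 and SP5, and the tankyrases TNKS and TNKS2. They were chosen by symbol in the deposited gene table, where 9 of the 10 symbols sought stood on a row, out of 31908 genes in all. The 10th, RNF43, had no symbol on its row and was matched through the NCBI gene ID in its description, so it is given beside the members and not counted among them. Poly(A) RNA of 3 pig (Sus scrofa) lines was sequenced, with 2 libraries per line. PA_1 and PA_3 are parthenogenetic lines, from eggs activated without sperm, and IVF_1 was derived after in vitro fertilisation, and all are labelled wild type. Each group is therefore a single line, and whether the libraries of a line came from separate cultures is not given in the labels, so p-values measure the spread between these libraries, which may be technical. All 6 libraries came from cells in the medium that the labels call FIW, a name known to stand for FGF2, the WNT inhibitor IWR-1 and an inhibitor of SRC-family kinases. The libraries analysed here therefore compare lines within 1 medium, and none was grown without the inhibitor.

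In canonical WNT signalling, a destruction complex built on AXIN and APC holds β-catenin low until a WNT ligand binds its frizzled and LRP receptors. Stabilised β-catenin then joins TCF and LEF factors on DNA and switches on targets such as AXIN2, NKD1, APCDD1, RNF43 and SP5, many of which restrain the pathway in turn. The tankyrases add poly(ADP-ribose) to axin, which marks it for destruction, and IWR-1 blocks them and so keeps axin protein high. WNT inhibitors are used in pig and human pluripotent cultures to hold back differentiation towards the primitive streak. Axin stability is set on the protein, which these RNA data do not measure.

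Library totals ran from 15248306 to 28575817 counts, and mitochondrial genes took 12.15% and 12.23% of counts in PA_3 against 7.67% to 9.65% in the other libraries. Levels of 1 gene across lines are given as counts per 1000000 counts (CPM) after TMM scaling, which matches libraries on the bulk of their genes. Levels of different genes are compared as the authors' TPM (transcript abundance divided by gene length and library sum). Marker lists are summed in CPM, without division by length, so their sums serve to compare lines and not lists. TPM set the median gene of PA_3 0.26 lower on the log2 scale than in IVF_1, while TMM set it at 0.00, so differences between lines are taken from TMM. All 7 measured pluripotency markers were detected in every line, but 5 were called lower in each parthenogenetic line than in IVF_1. Of all tested genes, 16.1% were called lower in PA_1 and 26.2% in PA_3. The pluripotency factor gene NANOG was at 75.8 CPM in IVF_1, 30.6 in PA_1 and 10.7 in PA_3, and DNMT3B, CDH1 and EPCAM were also lower in both lines. POU5F1 was lower in PA_1 (637 against 811 CPM) and LIN28A in PA_3 (238 against 323 CPM), while OTX2 was higher in PA_3 (540 against 360 CPM).

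By TPM the members spanned from TNKS2 and AXIN1 at the top to SP5 near 0. TNKS2 had a median of 40.9 TPM over the 6 libraries (34.0 to 46.4) and AXIN1 one of 40.7 TPM (32.3 to 45.1), and these ranges overlapped. TNKS (14.7 TPM, 13.3 to 18.8), TCF7 (14.2 TPM, 13.0 to 15.5), APCDD1 (12.6 TPM, 7.96 to 16.6) and AXIN2 (11.3 TPM, 8.23 to 12.8) followed, and the ranges of neighbours among these 4 overlapped. NKD1 stood at 5.08 TPM (3.82 to 5.91) and LEF1 at 2.93 TPM (1.67 to 5.11), and below them RNF43 at 0.62 TPM (0.32 to 0.76) and SP5 at 0.07 TPM (0 to 0.31) did not overlap any neighbour. The feedback targets AXIN2, APCDD1 and NKD1 were thus detected in every library, between 3.82 and 16.6 TPM.

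AXIN2, which encodes a scaffold of the destruction complex and is widely used as a readout of WNT activity, differed between all 3 lines. The gene lies on chromosome 12 (12311293 to 12343200, minus strand; Sscrofa11.1, as for all positions). It stood at 20.4 and 18.5 CPM in IVF_1, 24.0 and 26.5 CPM in PA_1, and 33.7 and 35.0 CPM in PA_3. PA_3 was highest, IVF_1 lowest, and no line overlapped another, as held for 64.8% of all tested genes in PA_1 against IVF_1, 78.9% in PA_3 against IVF_1 and 66.7% in PA_1 against PA_3. PA_3 exceeded IVF_1 1.76-fold (log2 fold change 0.82, SE 0.10, adjusted p = 5.6e-06). PA_1 was 1.29-fold above IVF_1 (0.37, SE 0.11, adjusted p = 0.013) and lay 0.45 below PA_3 on the log2 scale (log2 fold change -0.45, SE 0.10, adjusted p = 0.0016). The call between PA_1 and IVF_1 did not hold without IVF_1 replicate 1 (adjusted p = 0.051) and without replicate 2 (adjusted p = 0.16), the highest of a range from 0.002 to 0.16 over the alternatives, while the other AXIN2 calls held in all of them.

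APCDD1, a membrane protein known to bind WNT and its LRP co-receptor and to dampen the signal, followed the same order of lines. The gene lies on chromosome 6 (97992228 to 98026768, minus strand). It stood at 9.49 and 9.36 CPM in IVF_1, 15.3 and 14.1 CPM in PA_1, and 21.5 and 23.8 CPM in PA_3, with no overlap between lines. PA_3 was 2.40-fold above IVF_1 (log2 fold change 1.26, SE 0.12, adjusted p = 2.4e-07). That was the largest of the members' changes against IVF_1, and 9.99% of all tested genes changed at least as much. PA_1 was 1.56-fold above IVF_1 (0.65, SE 0.13, adjusted p = 0.00089) and below PA_3 (-0.62, SE 0.11, adjusted p = 0.00029). Each of these calls held in every alternative run, with adjusted p up to 0.019.

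NKD1, an inhibitor that binds Dishevelled, set the parthenogenetic lines apart. Its locus is on chromosome 6 (34223884 to 34319528, minus strand). It stood at 8.22 and 7.13 CPM in IVF_1, 5.80 and 6.16 CPM in PA_1, and 11.5 and 11.12 CPM in PA_3. IVF_1 lay between the parthenogenetic lines, and no line overlapped another. PA_1 had 0.526 times the level of PA_3 (log2 fold change -0.93, SE 0.14, adjusted p = 5e-05), which held in every alternative. PA_3 was 1.47-fold above IVF_1 (0.56, SE 0.14, adjusted p = 0.0029), a call that did not hold without IVF_1 replicate 2 (adjusted p = 0.059; range over the alternatives 0.00027 to 0.059). PA_1 against IVF_1 gave -0.37 (95% interval -0.68 to -0.05, adjusted p = 0.071), which did not pass.

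RNF43, a ubiquitin ligase that removes frizzled receptors from the cell surface, had 10 to 37 counts per library, on chromosome 12 (34635228 to 34694464, minus strand). It stood at 1.09 and 1.05 CPM in IVF_1, 1.25 and 0.545 CPM in PA_1, and 1.30 and 0.914 CPM in PA_3. The lines overlapped, no comparison was called (adjusted p from 0.72 to 0.94), and the interval of PA_3 against IVF_1 ran from -0.81 to 0.90 on the log2 scale. The interval of PA_1 against IVF_1 ran from -1.03 to 0.715. Such wide intervals hold sizeable differences in either direction, so the lines cannot be called equal for this gene.

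**Figure D1:**
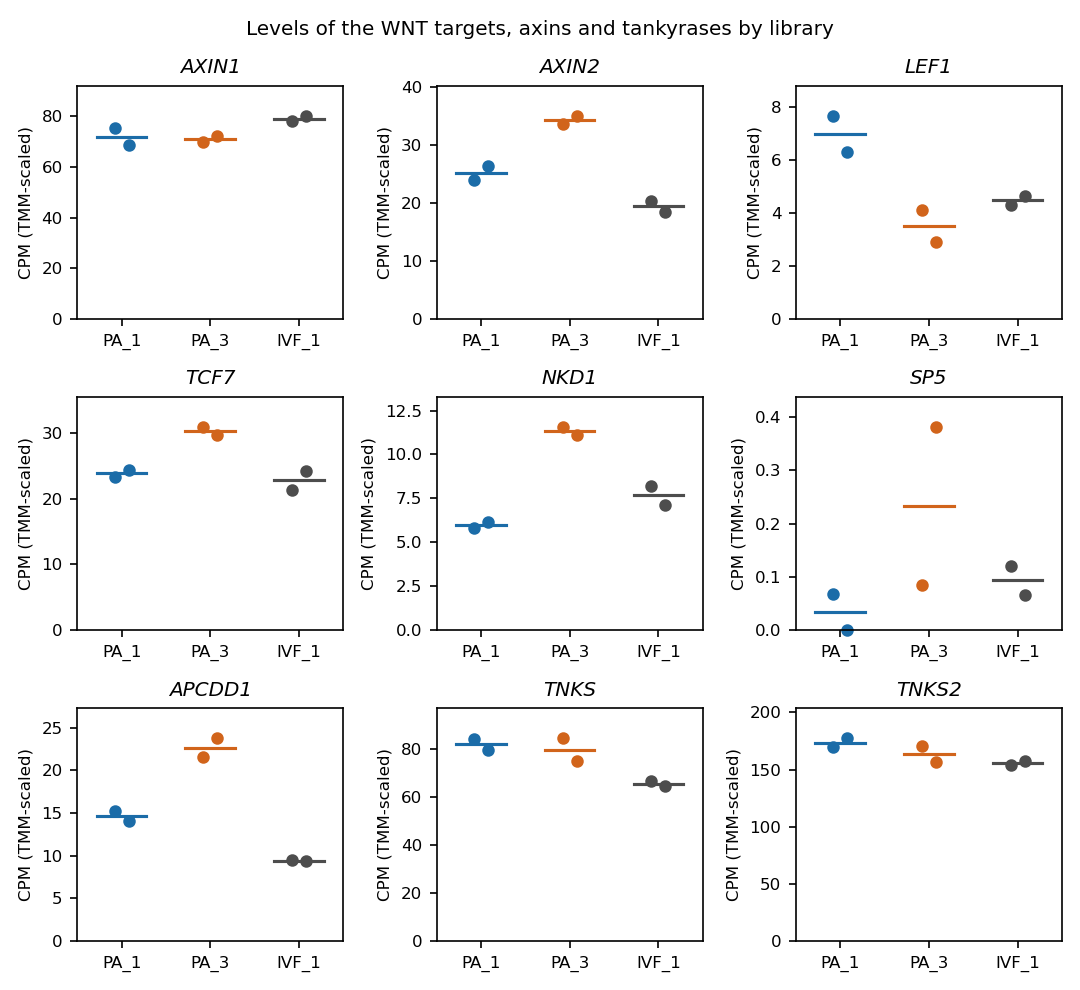
Levels of the 9 members in CPM after TMM scaling (vertical axes, from 0), with 1 point per library and a bar at the mean of the 2 libraries of each line. AXIN2 and APCDD1 were highest in PA_3 and lowest in IVF_1, NKD1 was lowest in PA_1, and LEF1 was highest in PA_1.

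LEF1, a TCF-family factor that is itself a WNT target, went against the order seen for AXIN2. The gene lies on chromosome 8 (113824547 to 113944078, plus strand). It stood at 4.29 and 4.65 CPM in IVF_1, 7.63 and 6.27 CPM in PA_1, and 4.11 and 2.89 CPM in PA_3. PA_1 was highest, with no overlap with the other lines. PA_1 was 2.01-fold above PA_3 (log2 fold change 1.01, SE 0.19, adjusted p = 0.00051), which held in every alternative. PA_1 was 1.57-fold above IVF_1 (0.65, SE 0.20, adjusted p = 0.017). This call was lost with DESeq2 (adjusted p = 0.11), without replicate 1 of PA_1 (0.091) and without replicate 1 (0.14) or 2 (0.073) of IVF_1, in a range from 0.0026 to 0.14. PA_3 against IVF_1 did not pass (-0.36, 95% interval -0.80 to 0.09, adjusted p = 0.17).

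TCF7, another TCF-family factor, was highest in PA_3. Its locus is on chromosome 2 (136422712 to 136458037, plus strand). It stood at 21.4 and 24.3 CPM in IVF_1, 23.3 and 24.4 CPM in PA_1, and 30.9 and 29.6 CPM in PA_3. PA_1 and IVF_1 overlapped, and both PA_3 libraries were above all others. PA_3 was 1.32-fold above IVF_1 (log2 fold change 0.41, SE 0.10, adjusted p = 0.0031), and PA_1 lay below PA_3 (-0.34, SE 0.10, adjusted p = 0.011). The first call did not hold without IVF_1 replicate 1 (adjusted p = 0.082; range 0.00011 to 0.082) and the second without replicate 1 of PA_3 (0.083; range 0.0044 to 0.083). PA_1 against IVF_1 gave 0.06 (95% interval -0.16 to 0.28, adjusted p = 0.69).

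SP5, a zinc finger factor that represses other WNT targets in human pluripotent cells, was close to undetected. The gene lies on chromosome 15 (76902387 to 76905023, plus strand). It had 2 and 1 counts in IVF_1, 2 and 0 in PA_1, and 2 and 10 in PA_3, and it did not pass the filter on low counts. For scale, 3 counts over a line correspond to 0.094 CPM in IVF_1, 0.064 in PA_1 and 0.059 in PA_3, for counting error only. Its annotated span overlaps that of ERICH2 on the same strand, so the few reads could belong to either gene.

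AXIN1, the constitutive axin of the destruction complex, showed no called difference. Its locus is on chromosome 3 (41337071 to 41393997, plus strand). It stood at 78.1 and 80.0 CPM in IVF_1, 75.5 and 68.6 CPM in PA_1, and 69.8 and 72.2 CPM in PA_3. The IVF_1 libraries were above all others. The differences were small, at -0.13 for PA_1 against IVF_1 (95% interval -0.29 to 0.03, adjusted p = 0.2) and -0.16 for PA_3 against IVF_1 (-0.32 to 0.005, adjusted p = 0.096). PA_3 against IVF_1 passed in a fit of those libraries alone (adjusted p = 0.03), without replicate 1 of PA_1 (0.031) and without replicate 2 of PA_1 (0.03), and PA_1 against IVF_1 without replicate 1 of PA_1 (0.042). The adjusted p ranged over the alternatives from 0.03 to 0.33 for PA_3 and from 0.042 to 0.58 for PA_1.

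Of the tankyrases, TNKS was higher in both parthenogenetic lines than in IVF_1. The gene lies on chromosome 15 (55514254 to 55681504, minus strand). It stood at 66.7 and 64.6 CPM in IVF_1, 84.5 and 79.9 CPM in PA_1, and 84.6 and 75.2 CPM in PA_3. All 4 parthenogenetic libraries were above both IVF_1 libraries, and PA_1 and PA_3 overlapped. PA_1 was 1.25-fold (log2 fold change 0.33, SE 0.08, adjusted p = 0.0051) and PA_3 1.22-fold (0.28, SE 0.08, adjusted p = 0.0069) above IVF_1. The PA_1 call did not hold without IVF_1 replicate 2 (adjusted p = 0.076; range 0.00032 to 0.076). The PA_3 call was lost without that library (0.082) and without replicate 1 of PA_3 (0.12; range 0.00031 to 0.12). On the TPM scale the difference of PA_3 from IVF_1 was 0.02 for TNKS, where the median gene stood at -0.26. PA_1 and PA_3 themselves differed by 0.04 (95% interval -0.12 to 0.21, adjusted p = 0.7).

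TNKS2, the more abundant tankyrase transcript, lies on chromosome 14 (103395689 to 103461821, plus strand). It stood at 154 and 158 CPM in IVF_1, 169.9 and 177 CPM in PA_1, and 170.3 and 157 CPM in PA_3. PA_1 was above IVF_1 in both libraries, and PA_3 overlapped each of the others. No comparison passed, with 0.16 for PA_1 against IVF_1 (95% interval 0.01 to 0.30, adjusted p = 0.091) and 0.07 for PA_3 against IVF_1 (-0.07 to 0.22, adjusted p = 0.4). PA_1 against IVF_1 passed with library totals in place of TMM (adjusted p = 0.045) and without replicate 1 of PA_1 (0.033; range 0.033 to 0.38). By TPM its difference of PA_3 from IVF_1 turned to -0.20.

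**Figure D2:**
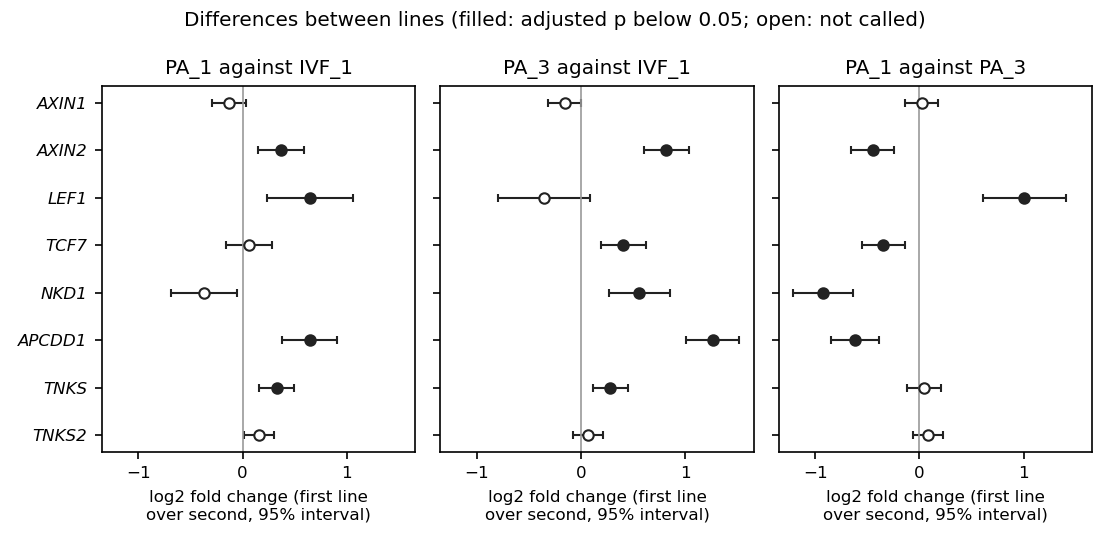
Log2 fold changes of the 8 tested members in the 3 comparisons (horizontal axis, first line over second, bars are 95% intervals), with filled points where the adjusted p was below 0.05. AXIN2 and APCDD1 were filled in every comparison, AXIN1 and TNKS2 in none.

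Counted by comparison, 8 of the 9 members passed the filter and SP5 did not. In PA_1 against IVF_1, 4 members were called, AXIN2, LEF1, APCDD1 and TNKS, all higher in PA_1, where 31.4% of all tested genes were called and 15.3% were called higher. The count was 2 after leaving out the first IVF_1 library and 1 after leaving out the second (replicates 1 and 2). In PA_3 against IVF_1, 5 were called, AXIN2, TCF7, NKD1, APCDD1 and TNKS, all higher in PA_3, where 52.1% of all tested genes were called, 25.9% higher and 26.2% lower, and the count was 3 without replicate 2 of IVF_1. These comparisons share the IVF_1 libraries. In PA_1 against PA_3, 4 were lower in PA_1 (AXIN2, TCF7, NKD1 and APCDD1) and 1 was higher (LEF1), where 36.8% of all tested genes were called, 17.8% higher and 19% lower. The median log2 fold change of the tested members was 0.24, 0.34 and -0.16 in these comparisons, beside 0.00 for all tested genes in each.

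Within the axins, the balance moved towards AXIN2 in PA_3. AXIN2 took 17.3% and 15.4% of the summed AXIN1 and AXIN2 TPM in IVF_1, 20.2% and 23.4% in PA_1, and 27.8% and 27.9% in PA_3. The lines did not overlap, although an exact permutation test of such a value, two-sided, cannot go below p = 0.333 with 2 libraries a line. TNKS2 took most of the tankyrase TPM, from 71.1% to 73.2% in the parthenogenetic libraries and 73.85% and 74.98% in IVF_1.

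Among the TCF and LEF factors, TCF7L1 was by far the most abundant. TCF7L1, known mainly as a repressor of WNT targets in pluripotent cells, took from 75.9% to 82.3% of the summed TPM of the 4 genes. TCF7L2 took 11.3% to 17.1%, TCF7 4.49% to 6.23% and LEF1 0.66% to 1.87%. TCF7L1 stood at 175 ± 5.03 CPM in IVF_1, 153 ± 6.67 in PA_1 and 193 ± 5.80 in PA_3 (SD, n = 2). It was lower in PA_1 than in PA_3 (log2 fold change -0.33, SE 0.07, adjusted p = 0.00091). TCF7L1 was also called lower in PA_1 than in IVF_1 (-0.20, adjusted p = 0.034), a call lost in 8 of 13 alternatives (adjusted p from 0.0055 to 0.23, and 0.06 with the replicate block). TCF7L2 was higher in PA_1 than in PA_3 (log2 fold change 0.32, SE 0.08, adjusted p = 0.005), the other way from TCF7L1. Without replicate 2 of PA_3 that call was lost, at a log2 fold change of 0.295.

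**Figure D3:**
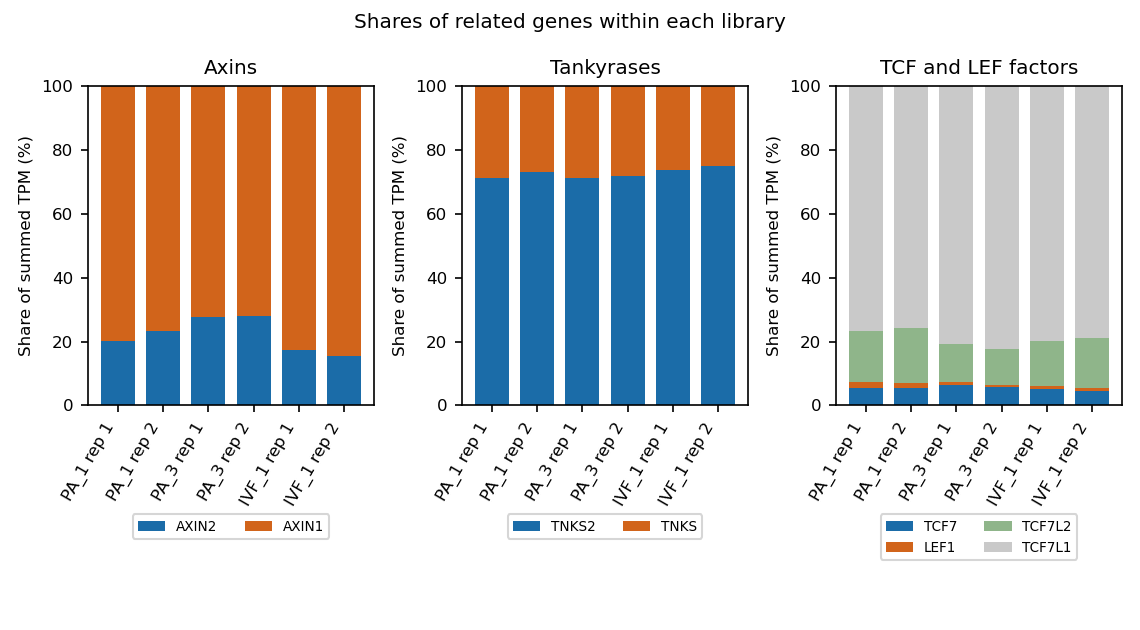
Shares of summed TPM within each library (vertical axes, percent) for the axins, the tankyrases and the 4 TCF and LEF factors, 1 stacked bar per library. AXIN2 took 27.8% and 27.9% in PA_3 against 15.4% and 17.3% in IVF_1, and TCF7L1 filled at least 75.9% of its panel in every library.

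The other pathway genes, 98 measured and 83 tested, moved in both directions. In PA_1 against IVF_1, 16 were higher and 16 lower, a share of 38.6% called (18 in all without IVF_1 replicate 1). In PA_3 against IVF_1, 18 were higher and 27 lower, or 54.2%, and in PA_1 against PA_3, 20 were higher and 12 lower, or 38.6%. These shares stand beside 31.4%, 52.1% and 36.8% of all tested genes. The median log2 fold changes were 0.03, -0.06 and 0.05.

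The measured WNT ligand genes were low by TPM. The highest mean of any line was 4.375 TPM for WNT8A in PA_1, from libraries at 3.11 and 5.64 TPM. The 14 tested genes for ligands and their secretion include PORCN and WLS. Of these, 2 rose and 5 fell in PA_1 relative to IVF_1, and likewise 2 and 5 in PA_3. That is 50% called in each, beside 31.4% and 52.1% of all tested genes. PORCN, which adds the lipid that WNT proteins need, and WLS were among the 5 in PA_1, and WLS among the 5 in PA_3. WLS, the carrier that brings WNT proteins to the cell surface, fell from 8.96 ± 1.10 CPM in IVF_1 to 3.36 ± 0.488 in PA_1 (log2 fold change -1.43, SE 0.22, adjusted p = 9.1e-05) and 1.55 ± 0.655 in PA_3 (-2.51, SE 0.24, adjusted p = 2.2e-07). WNT5B, a ligand linked mainly to β-catenin-independent signalling, was lower in PA_3 than in either other line (-1.75, SE 0.25, adjusted p = 2.1e-05 against IVF_1). WNT7A was higher in both parthenogenetic lines (0.95 in PA_1, adjusted p = 0.026, and 1.64 in PA_3, adjusted p = 0.00018), and WNT8B was lower in both (-1.71, adjusted p = 0.0019, and -2.35, adjusted p = 1e-04). The WNT7A call in PA_1 was lost with DESeq2 (adjusted p = 0.16), without replicate 1 of PA_1 (0.21) and without replicate 1 (0.21) or 2 (0.066) of IVF_1, and that of WNT8B in PA_1 without replicate 1 of IVF_1 (0.064), with lowest values over the alternatives of 0.0058 and 2.3e-05.

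Receptor genes were called in both directions. Of 18 tested, 7 were higher and 3 lower in PA_1 relative to IVF_1, 7 higher and 5 lower in PA_3, and 3 higher and 2 lower in PA_1 relative to PA_3. These are 55.6%, 66.7% and 27.8% called, beside 31.4%, 52.1% and 36.8% of all tested genes. LGR4, a receptor for R-spondins, stood at 193 ± 11.6 CPM in IVF_1, 312 ± 18.3 in PA_1 and 348 ± 27.0 in PA_3, and was higher in PA_1 (0.69, SE 0.07, adjusted p = 2.5e-06) and PA_3 (0.85, SE 0.07, adjusted p = 8.8e-08). Its relative LGR5 went the other way, at 3.24 CPM in IVF_1, 1.27 in PA_1 (-1.295, adjusted p = 0.002) and 1.04 in PA_3 (-1.636, adjusted p = 0.00017). LGR6 was higher in both lines (1.72, adjusted p = 0.035, and 2.22, adjusted p = 0.003), from 4 and 2 counts in IVF_1. The frizzled gene FZD8 was higher in both lines (1.09 and 0.90), and the non-canonical receptor gene ROR2 was lower in both (-0.66 in each). FZD7 was higher in PA_3 than in IVF_1 (0.56, SE 0.06) and than in PA_1. The co-receptor gene LRP6 was lower in PA_3 than in IVF_1 (-0.35, adjusted p = 0.0016), and PA_1 against IVF_1 gave -0.01 (adjusted p = 0.94).

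Genes for secreted regulators were called in both directions in every comparison. Of 12 tested, 3 were higher and 4 lower in PA_1 relative to IVF_1, and 2 and 6 in PA_3. In PA_1 against PA_3, 5 were higher and 2 lower. These are 58.3%, 66.7% and 58.3% called, beside 31.4%, 52.1% and 36.8% of all tested genes. FRZB and SFRP2, secreted frizzled-related proteins that bind WNT, were higher in PA_1 than in IVF_1 (0.48 and 0.42) and lower in PA_3 (-0.59 and -0.35). DKK1, an LRP antagonist and WNT target, had 29 and 31 counts in IVF_1, 2 and 3 in PA_1, and 8 and 12 in PA_3. RSPO3, an R-spondin, had 31 and 32 counts in IVF_1, 17 and 21 in PA_1, and 5 and 3 in PA_3. Both genes were called lower in each parthenogenetic line than in IVF_1. The RSPO3 call in PA_1 (-1.28, adjusted p = 0.015) was lost with DESeq2 (0.16), without replicate 1 of PA_1 (0.17) and without replicate 1 (0.076) or 2 (0.11) of IVF_1, with a lowest value of 0.0029.

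Destruction complex genes gave few calls in each comparison. Of 12 tested, 2 were higher in PA_1 than in IVF_1, 2 were lower in PA_3, and 3 were higher in PA_1 than in PA_3, or 16.7%, 16.7% and 25% beside 31.4%, 52.1% and 36.8% of all tested genes. CTNNB1, which encodes β-catenin, stood at 807 ± 2.33 CPM in IVF_1, 929 ± 15.6 in PA_1 and 780 ± 16.5 in PA_3, and was higher in PA_1 than in PA_3 (0.25, SE 0.06, adjusted p = 0.0038) and IVF_1 (0.20, SE 0.06, adjusted p = 0.018). The first call was lost without replicate 2 of PA_3 (adjusted p = 0.066; range 0.00014 to 0.066), and the second without replicate 1 (0.15) or 2 (0.13) of IVF_1 (range 0.0039 to 0.15). APC2, a relative of APC, was higher in PA_1 (0.43, adjusted p = 0.0026) and lower in PA_3 (-0.46, adjusted p = 0.001) than in IVF_1, the former lost without replicate 1 of IVF_1 (adjusted p = 0.072; range 0.00012 to 0.072). CSNK1A1, the kinase that primes β-catenin, was lower in PA_3 (-0.34, adjusted p = 0.0033). In PA_1 against IVF_1 it did not pass (adjusted p = 0.15), but did without PA_1 replicate 2 (0.00026; range 0.00026 to 0.91). APC was called between PA_1 and PA_3 (0.34, adjusted p = 0.018), which fell to 0.16 without replicate 2 of PA_1 (adjusted p = 0.12) and was lost without replicate 2 of PA_3 (0.15; range 7e-07 to 0.15). APC did not pass in PA_3 against IVF_1 (adjusted p = 0.062) but passed there in 6 of 13 alternatives (range 0.0015 to 0.3), and PA_1 against IVF_1 (adjusted p = 0.54) passed without PA_1 replicate 1 (0.0064; range 0.0064 to 0.91). GSK3B gave 0.09 against IVF_1 in each parthenogenetic line (adjusted p = 0.34 and 0.28).

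Of 5 genes that act on axin turnover, 0 were called against IVF_1 in either parthenogenetic line by edgeR and 0 by DESeq2. In each comparison 1 had an unadjusted edgeR p below 0.05. Among all tested genes, edgeR called 31.4% in PA_1 and 52.1% in PA_3 against IVF_1. RNF146, the ubiquitin ligase that reads the poly(ADP-ribose) mark on axin, stood at 54.7 CPM in IVF_1, 53.3 in PA_1 and 53.2 in PA_3. Its 95% interval was -0.23 to 0.15 on the log2 scale in PA_1 against IVF_1 and -0.23 to 0.15 in PA_3 against IVF_1. SIAH2, a ubiquitin ligase, was lower in PA_1 than in PA_3 (-0.68, adjusted p = 0.038), a call lost in 8 of 13 alternatives (adjusted p up to 0.31, without replicate 1 of PA_1, and down to 0.0053).

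Among TCF7L1, TCF7L2 and the partners of the TCF factors, the Groucho-family (TLE) genes differed by member. Of these 11 tested genes, 2 rose and 1 (TCF7L1) fell in PA_1 relative to IVF_1. In PA_3, 4 rose and 4 fell, and in PA_1 against PA_3 the counts were 5 and 3. The shares called were 27.3%, 72.7% and 72.7%, beside 31.4%, 52.1% and 36.8% of all tested genes. TLE4 stood at 74.0 ± 4.56 CPM in IVF_1, 84.3 ± 3.75 in PA_1 and 32.5 ± 0.179 in PA_3, and was lower in PA_3 (-1.19, SE 0.08, adjusted p = 5e-09 against IVF_1). TLE1 was higher in both parthenogenetic lines (0.50 and 0.52). TLE2 (0.94) and TLE5 (0.61) were higher in PA_3 than in IVF_1.

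Other WNT targets were called in both directions. Of 11 tested, 3 were lower in PA_1 than in IVF_1, and 3 were higher and 5 lower in PA_3. In PA_1 relative to PA_3, 1 was higher and 3 lower. These are 27.3%, 72.7% and 36.4% called, beside 31.4%, 52.1% and 36.8% of all tested genes. CCND1, the cyclin that drives entry into S phase, fell from 69.7 ± 1.52 CPM in IVF_1 to 41.1 ± 1.41 in PA_1 (-0.76, SE 0.08, adjusted p = 2.4e-06) and 37.2 ± 1.67 in PA_3 (-0.90, SE 0.08, adjusted p = 1.3e-07). The receptor gene TNFRSF19 was lower in both (-0.82 and -1.11). MYC was lower in PA_1 (-0.62, adjusted p = 0.00021), and its call in PA_3 (-0.24, adjusted p = 0.047) was lost in 7 of 13 alternatives (adjusted p from 0.011 to 0.35). BMP4, a growth factor gene, was higher in PA_3 than in IVF_1 (0.52, adjusted p = 0.0019), which did not hold without IVF_1 replicate 1 (adjusted p = 0.068; range 4.9e-05 to 0.068). ZNRF3, the partner of RNF43, was lower in PA_3 (-0.46, SE 0.11, adjusted p = 0.0025).

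**Figure D4:**
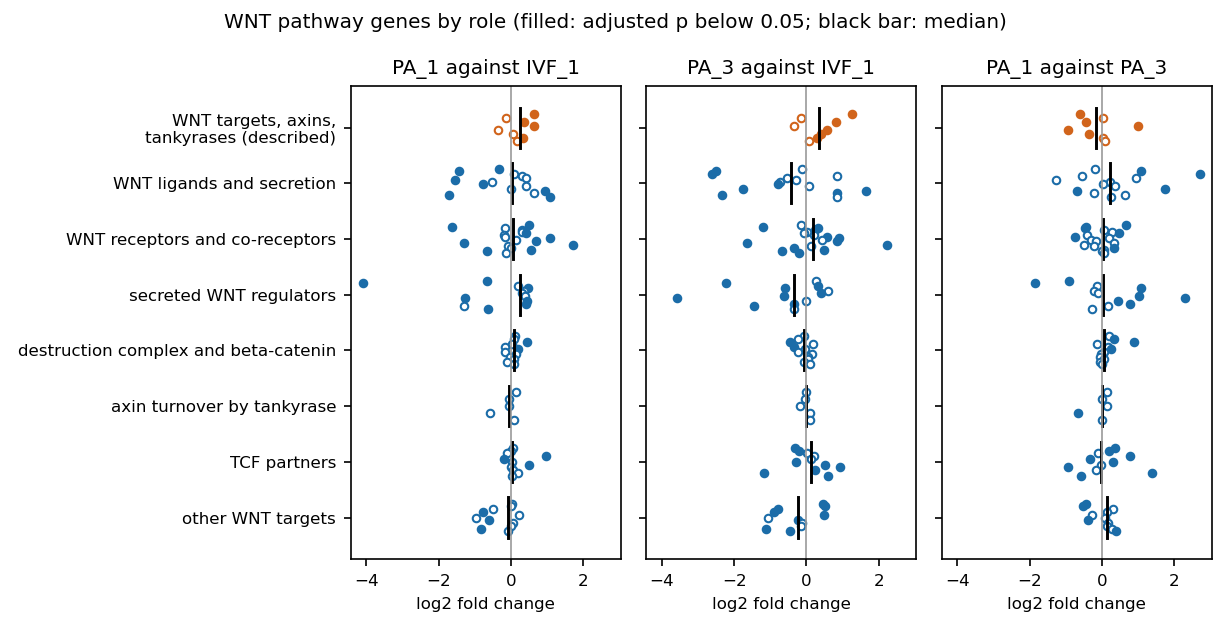
Log2 fold changes of tested WNT pathway genes by role in the 3 comparisons (horizontal axis, first line over second), with 1 point per gene, filled where the adjusted p was below 0.05, and a black bar at each list's median. The members had medians of 0.24, 0.34 and -0.16, and the points of every list, the members included, lay on both sides of 0 in every panel.

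Markers of other cell types stood at varied levels, and genes of 1 list could differ in opposite directions. Some were as high as members. By TPM the fibroblast marker COL1A1 stood at 12.0 in IVF_1, 11.2 in PA_1 and 9.29 in PA_3, beside AXIN2 at 8.62, 11.35 and 12.6. TBXT, the primitive streak factor that WNT switches on, had 5 and 7 counts in IVF_1, 0 in each PA_1 library, and 0 and 1 in PA_3, and MIXL1 had 0 in every library. The 7 measured streak markers summed to 11.7 to 14.45 CPM in PA_1, 14.3 to 17.8 in PA_3 and 19.96 to 21.8 in IVF_1. Of the 5 tested, EOMES stood at 11.7 CPM in IVF_1, 2.62 in PA_1 and 1.24 in PA_3 (log2 fold change -2.17 and -3.22), and GSC was lower in PA_1 (-2.12). SNAI2 was higher in both (1.25 and 2.94) and TBX6 in PA_3 (0.54), and MESP1 did not pass against IVF_1 in either line. The 4 endoderm markers summed to 4.2 to 4.54 CPM in PA_1, 20.7 to 26.8 in PA_3 and 10.9 to 11.85 in IVF_1. FOXA2 alone gave 21.7 CPM in PA_3 against 4.82 in IVF_1, while GATA4 (log2 fold change -2.47, adjusted p = 1.2e-05) and GATA6 (-2.26, adjusted p = 0.0068) were lower in PA_3 than in IVF_1. In PA_1, SOX17, GATA4 and GATA6 were lower than in IVF_1, at few counts. SOX17 had 0 and 1 counts in PA_1 against 30 and 23 in IVF_1. GATA4 had 0 and 2 against 62 and 65, and GATA6 had 4 and 6 against 13 and 15. The 4 trophoblast markers summed to 11.3 to 12.1 CPM in the parthenogenetic lines and 14.5 to 15.7 in IVF_1, with CDX2 at 0. GATA3 was lower in PA_1 (-5.29) and TFAP2C in PA_3 (-0.51) than in IVF_1. The GATA3 value rests on 1 and 0 counts in PA_1 against 19 and 14 in IVF_1, so its size is uncertain. The 7 pluripotency markers summed to 3539 to 3726 CPM in PA_1, 3626 to 3693 in PA_3 and 5613 to 5675 in IVF_1. The 8 fibroblast markers summed to 58.3 to 68.6 CPM in PA_1, 60.7 to 64.5 in PA_3 and 65.6 to 67.0 in IVF_1. PA_1 overlapped both other lines, while PA_3 lay below IVF_1. Of 6 fibroblast markers tested, 0 were called in PA_1 against IVF_1 by edgeR (0 at an unadjusted p below 0.05, and 0 by DESeq2). In PA_3 against IVF_1, 4 were called, 1 higher and 3 lower. Over all tested genes the shares called were 31.4% and 52.1%. The part of other cells in the members' differences was not tested, and in bulk RNA fewer cells of a type and less RNA per cell cannot be told apart.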

How the data were processed

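Poly(A) RNA of 6 libraries was made into stranded paired-end libraries, per the labels' protocols. Reads were trimmed with cutadapt 2.8 and aligned with STAR 2.7.1a to Sscrofa11.1, per the submitters' processing notes, while the counting tool, annotation and strandedness were not given in the sources used here. Raw read counts per gene, as deposited, were the input of every test. The deposited RPKM, scaled by length and library total, served only to check units, and the TPM of the authors gave levels between genes. The table's 54 columns of other samples were not used.

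Counts were fitted with edgeR 4.0.16 in R 4.3.3 (TMM, filterByExpr by line, robust glmQLFit and glmQLFTest, two-sided, 1 coefficient per line, 3 residual degrees of freedom). Benjamini-Hochberg adjustment ran over the 15197 genes that passed the filter, and an adjusted p below 0.05 was called. Log2 fold changes have SE and 95% intervals from the same fit, and SD is over 2 libraries. The fit was tested on simulated data. The members and lists were chosen with earlier results of these data known. Named genes are all members, up to 4 genes per pathway list with the smallest adjusted p, and a fixed set. The fixed set includes CTNNB1, APC, GSK3B, RNF146, TCF7L1, TCF7L2, LGR4, LRP6, ZNRF3, MYC, CCND1 and TBXT. ERICH2, PORCN, LGR5, LGR6 and single marker genes were named after their values were seen. Names came from the table or, where it gave none, through NCBI gene IDs. Of the listed symbols, TNKS1BP1, PYGO2, SOX2, SALL4 and TWIST1 were not matched and are not analysed here. Libraries of a line differed by more than sampling noise (chi-square per gene 2.78 to 11.5). Alternatives were DESeq2 1.42.0, RLE scaling, no filter, only the lines compared, a replicate block and each library left out. Library totals without TMM, and TMM without mitochondrial genes, were chosen after seeing the data.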

Additional observations from a re-analysis of the deposited data

How the results depend on the processing

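Leaving out 1 library at a time moved the number of members called between 1 and 5 in PA_1 against IVF_1, between 3 and 6 in PA_3 against IVF_1 and between 4 and 5 in PA_1 against PA_3. It moved the other pathway genes called in PA_1 against IVF_1 between 18 and 38, and all genes called between 2307 and 5812 there and between 3406 and 6496 in PA_1 against PA_3. Of 312 values of single members under the alternatives, 289 kept direction and side of the threshold, 12 lost the call, 6 gained it and 5 changed sign. The sign changes were of values near 0 that were not called: TCF7 in PA_1 against IVF_1 ran from -0.0288 (without replicate 1 of IVF_1) to 0.15, and in PA_1 against PA_3 AXIN1 ran from -0.05 (without replicate 1 of PA_1, and -0.00226 without replicate 1 of PA_3) to 0.101 and TNKS from -0.0423 (without PA_3 replicate 2, and -0.000284 without PA_1 replicate 1) to 0.128. The cause was not tested. Replicate numbers did not pair the libraries (correlation of deviations -0.023, 0.064 and -0.032 between lines). With the replicate block 4, 5 and 5 members were called, as without it, and no member's call changed. Library totals in place of TMM gave 3477 higher and 2373 lower genes in PA_1 against PA_3, against 2712 and 2883 with TMM. By TPM or CPM alike, 5 of 9 members had their highest mean in PA_3. They include SP5, which had only 2 and 10 counts there. The share of all genes highest in PA_3 was not computed. Low counts limit SP5, which was not tested, and RNF43, whose intervals were wide.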

Other observations

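The genes whose levels over the 6 libraries ran most like AXIN2 were taken as those with the highest Pearson r of log2(CPM + 1), among 10462 named genes with a mean of at least 5 CPM. They were RCAN1, an inhibitor of calcineurin (r = 0.999), PLD5 (0.997), PTGIS, the prostacyclin synthase (0.996), ATP1A4, a sodium pump subunit (0.994), and KCNN3, a calcium-activated potassium channel subunit (0.994). RCAN1 stood at 16.0 and 14.2 CPM in IVF_1, 18.1 and 19.9 in PA_1, and 24.6 and 25.5 in PA_3. The 6 libraries come from 3 lines, and 962 genes had r of at least 0.9 with AXIN2, so the likeness describes an order of lines that many genes share. Among the members, r with AXIN2 was 0.975 for APCDD1, 0.863 for TCF7, 0.678 for TNKS, 0.66 for NKD1, 0.326 for TNKS2, -0.411 for LEF1 and -0.816 for AXIN1.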
